A study of Mus musculus with 3 samples.

Results

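Ciita-positive conventional type 2 dendritic nuclei were examined in single-nucleus RNA-seq libraries of the mouse abdominal aorta. They made up 1245 of 30730 nuclei that passed the filters, with 481 in the room air library, 758 in the smoke library and 6 in the aneurysm library. A nucleus was a member when at least 3 distinct genes of Flt3, Ciita, Kmo, Dpp4, Htr7, Il1r2, Zbtb46 and Cd209a had a UMI (a unique molecular identifier, counted once for each captured RNA molecule). The summed UMIs of these 8 genes also had to exceed those of the macrophage genes Mertk and Adgre1. The type 1 dendritic genes Xcr1 and Clec9a had to be at 0, and fewer than 2 of the B cell genes Pax5, Bank1, Ms4a1 and Cd79a could be detected. Membership was therefore set by measured RNA, and the levels of these genes in the members are a description of the choice.

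All animals were ApoE-/- mice of the C57Bl/6 strain, which lack apolipoprotein E, and all received a high-fat diet. Exposure to room air or to cigarette smoke lasted 20 weeks. The libraries came from room air mice, from smoke-exposed mice without an abdominal aortic aneurysm, and from smoke-exposed mice with one. The tissue had been slow-frozen and the nuclei purified with anti-nucleus beads, and the labels give the cell type as total cells, so nothing was sorted for dendritic cells. The labels name neither the age or sex of the mice nor how many of them went into a library. Each group is 1 library, so the spread between animals is unknown. No test between groups was possible, and the 95% intervals given throughout cover counting error alone (exact Poisson for levels, exact binomial for shares and ratios).

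Conventional dendritic cells take up antigen, carry it to lymph nodes and present it to T cells. The type 2 subset presents mainly on MHC class II molecules to CD4+ T cells, and in atherosclerotic arteries dendritic cells lie in the intima and adventitia. CIITA, the protein made from Ciita, is a co-activator that does not bind DNA by itself: it joins a complex of RFX, CREB and NF-Y proteins on class II promoters and switches on the class II chains, the invariant chain Cd74 and the H2-DM peptide editors together. Once stimulated, dendritic cells raise Ccr7, the receptor for lymph node chemokines, and remodel their cytoskeleton as they migrate.

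These class II promoters are shown because each gene, though not used to choose the nuclei, was higher in members than in macrophage-marker nuclei. H2-Eb2 was low even so, with 26 UMIs in room air members and 93 in smoke members. Summed over all members, H2-Aa, H2-Eb1 and H2-Eb2 were also higher in smoke than in room air. The RefSeq windows (GRCm38.p6) held 13 of the 16 genes of the class II list. Each line gives the 140 bases before the annotated start, 5′ to 3′ on the gene's strand. The capitals mark CCAAT, the letters that NF-Y reads, in either orientation (ATTGG is its reverse complement).
H2-Aa, chr17:34287824-34287963, minus strand: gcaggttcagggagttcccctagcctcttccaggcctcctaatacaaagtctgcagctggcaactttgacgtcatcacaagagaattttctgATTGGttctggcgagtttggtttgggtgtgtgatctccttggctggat
H2-Eb1, chr17:34305727-34305866, plus strand: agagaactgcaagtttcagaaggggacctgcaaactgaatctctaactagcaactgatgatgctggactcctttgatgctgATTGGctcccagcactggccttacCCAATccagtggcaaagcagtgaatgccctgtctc
H2-Eb2, chr17:34325535-34325674, plus strand: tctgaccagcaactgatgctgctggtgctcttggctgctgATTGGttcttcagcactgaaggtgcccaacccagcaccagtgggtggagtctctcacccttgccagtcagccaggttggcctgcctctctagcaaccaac
H2-DMb1, chr17:34153051-34153190, plus strand: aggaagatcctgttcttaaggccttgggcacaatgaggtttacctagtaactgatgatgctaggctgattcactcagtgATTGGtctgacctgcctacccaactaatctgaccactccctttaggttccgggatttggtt
H2-Ob, chr17:34238765-34238904, plus strand: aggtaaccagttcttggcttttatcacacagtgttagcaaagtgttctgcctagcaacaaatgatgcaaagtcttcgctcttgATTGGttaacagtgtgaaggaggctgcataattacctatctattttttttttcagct
In H2-Aa the match began 48 bases before the start, in H2-Ob 57, in H2-DMb1 61 and in H2-Eb2 100. H2-Eb1 held 2 matches, beginning 59 and 35 bases before the start, in opposite orientations. Over windows of 250 bases before to 50 after a start, CCAAT in either orientation lay in 12 of the 16 class II windows, which belonged to 11 of the 13 genes. The same letters were in 12289 of all 32851 windows (37.4%), so the motif is common and a match describes the sequence only. The other motifs searched on both strands were rarer. The core of the ETS-IRF composite element was in 0 of 16 class II windows and in 2.72% of all windows. The core of the interferon-stimulated response element, which can overlap it, was in 1 (Ctss) and in 3.44%, and the AP-1 site TGACTCA was in 2 (H2-DMa and Rfx5) and in 5.20%.

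Ciita was the rule gene found in most members, with a UMI in 388 of 481 room air and 648 of 758 smoke members. Dpp4, a surface peptidase, followed in 334 and 609 members, and Htr7, a serotonin receptor, in 329 and 473. The decoy interleukin-1 receptor gene Il1r2 was found in 289 and 508, the dendritic transcription factor gene Zbtb46 in 269 and 446, the growth factor receptor gene Flt3 in 256 and 463, and the kynurenine enzyme gene Kmo in 193 and 335. Cd209a, a lectin of monocyte-derived and type 2 dendritic cells, was found in 31 room air members and 65 smoke members. Most members thus lacked a Cd209a UMI, and 4 room air and 11 smoke members had all 8 genes.

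To read each rule gene without its own effect on the choice, the nuclei were chosen again from the other 7 genes. Ciita was then detected in 74.6% of room air and 82.0% of smoke nuclei, against 8.18% and 10.2% of nuclei with at least 3 endothelial marker genes, which should hold little of it. Dpp4 was at 63.7% and 77.1%, Htr7 at 62.0% and 58.0%, Il1r2 at 52.1% and 62.1%, and Flt3 at 46.7% and 57.1%, with at most 4.70% in endothelial-marker nuclei. Each of these genes was thus found in far more of the nuclei picked by the other genes than in endothelial-marker nuclei. Kmo stood at 36.1% and 41.9% (endothelial 1.29% and 2.57%). Zbtb46 was the exception, at 48.0% and 53.7% of the chosen nuclei and also at 28.0% and 36.7% of endothelial-marker nuclei. Cd209a was at 5.86% and 8.09%, with 0.338% and 0.445% in endothelial-marker nuclei. Read in the same way, the levels of Il1r2 and Dpp4 were close between room air and smoke, with ratios of 1.00 and 1.01. Htr7 was at 817 and 577 CPM (the gene's UMIs scaled to a total of 1e+06 UMIs in the class), a smoke over room air ratio of 0.706 (0.660 to 0.756), and Cd209a at 43.2 and 25.5 CPM, a ratio of 0.591 (0.440 to 0.796; 82 and 110 UMIs). The Cd209a ratio is not stable: among the members as chosen it was 0.599, with 38 of 85 room air UMIs in 1 nucleus, and it was 0.992 without the top nucleus of each library and 1.44 with nuclei thinned to 1000 UMIs. Flt3, Zbtb46 and Kmo had ratios of 0.907, 0.907 and 0.851.

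**Figure D1:**
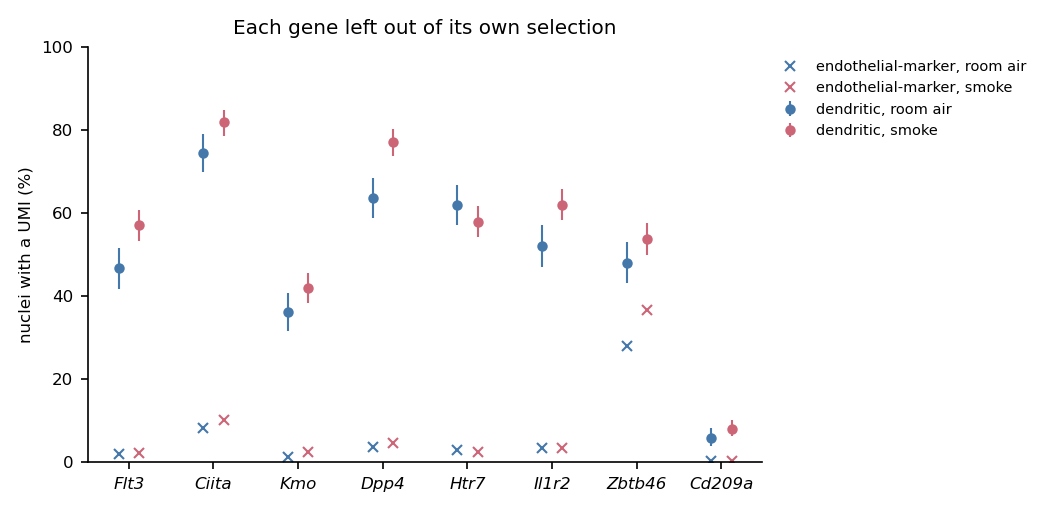
Percent of nuclei with a UMI of each rule gene (vertical axis) in room air and smoke, where the gene itself was left out when the nuclei were chosen; bars on the points are exact binomial 95% intervals and crosses are endothelial-marker nuclei of the same library. Ciita is highest at 74.6% and 82.0%, Cd209a lowest at 5.86% and 8.09%, and Zbtb46 has the highest crosses, at 28.0% and 36.7%.

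The number of rule genes a member held went with its class II level. In room air, 165 members held exactly 3 rule genes, 120 held 4 and 196 held 5 or more, and their summed levels of the 16 class II presentation genes were 2640, 3441 and 6573 CPM. In smoke, 193, 182 and 383 members stood at 3831, 5370 and 7224 CPM. The nuclei just outside the rule, with exactly 2 rule genes and otherwise meeting it, numbered 389 and 417 and stood at 976 and 1174 CPM. The order was the same in both libraries, from the outside nuclei up to those with the most rule genes. Ciita, itself a rule gene, rose along it, at 191, 506, 707 and 1106 CPM in room air and 151, 508, 844 and 1107 CPM in smoke. The groups were made from the rule's own genes, so the order is a description of the choice. Markers of other cells differed in their course. The summed endothelial genes were at 1899 and 2001 CPM just outside the rule and at 529 and 428 CPM in members with 5 or more rule genes. B cell genes outside the rule's list summed to 1099 and 1462 CPM in the nuclei just outside, and fibroblast genes to 2452 and 2322 CPM. Macrophage genes outside the rule did not fall with each rule gene: they summed to 1364 CPM outside and 1719, 1876 and 931 CPM inside in room air, and to 1428, 1735, 1803 and 1436 CPM in smoke. T or NK genes summed to 144 CPM outside and 132 CPM with 5 or more rule genes in room air, and to 223 and 163 CPM in smoke. Nuclei with 3 rule genes had a median of 1871 UMIs in room air, against 2986 over all members there; the part of depth in this order was not tested.

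Facts of the libraries that bear on the results are the following. The filters (at least 500 UMIs, at least 300 genes, under 5% mitochondrial UMIs) left 11022, 14001 and 5707 nuclei, with medians of 4058.5, 6225 and 1443 UMIs in room air, smoke and aneurysm. Room air members had a median of 2986 UMIs and 1.48% mitochondrial UMIs, smoke members 4743 UMIs and 0.554%. The smoke library was thus deeper and had the lower mitochondrial share, which moves with every comparison of these libraries, and its part in them was not tested. The member UMIs summed to 1900315 in room air and 4329105 in smoke. Pairs of libraries shared between 26 and 46 cell barcodes, 0 of them among the members. No doublet caller was used.

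The label was set beside 15 type 2 dendritic genes outside the rule. These genes do not settle it, because genes of other dendritic and monocyte kinds were higher in the same contrast. Against nuclei with macrophage markers (at least 3 UMIs of Mertk and Adgre1, more than of the rule genes; 4610 in room air and 6532 in smoke), 12 of 14 measured genes were at least 1.5-fold higher in room air members and 11 of 15 in smoke members. A gene counted as measured with at least 20 UMIs in the 2 classes together. Over all genes, 22.7% of 15201 were higher and 23.7% were lower by the same fold in room air, and 20.7% and 23.7% of 17189 in smoke; the rule itself set this contrast, so nothing is read from the counts. Clec10a, a lectin of type 2 dendritic cells, was at 42.6 and 37.9 CPM in members and at 2.90 and 4.38 CPM in macrophage-marker nuclei. Irf4, a transcription factor of that subset, was at 29.995 and 22.9 CPM against 2.14 and 1.91 CPM. Both genes were many-fold higher in the members but low in absolute terms. The whole list summed to 1274.5 and 1273.7 CPM in members and to 1310 and 1304 CPM in macrophage-marker nuclei. Monocyte genes were higher in the members too, 6 of 9 measured in room air and 9 of 12 in smoke. So were type 1 dendritic genes, 5 of 9 and 6 of 10, beside the same shares over all genes. The integrin gene Itgax was close in both kinds of nuclei, at 166 and 189 CPM in members and 151 and 175 CPM in macrophage-marker nuclei. Sirpa, a surface receptor often used to sort the subset, was lower in the members than in macrophage-marker nuclei, at 388 and 419 against 847 and 802 CPM, and above type 1 dendritic nuclei by 2.35-fold (95% interval 1.83 to 3.05) and 2.22-fold (1.90 to 2.60). Against type 1 dendritic nuclei, 7 of 11 measured type 2 genes were higher in room air members and 1 was lower (Klf4). In smoke 8 of 14 were higher and 1 was lower (Cd24a). Over all genes, 18.4% of 8924 and 18.1% of 11395 were higher. The rule set this contrast too, so nothing is read from these counts.

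Members were next set beside type 1 dendritic nuclei, which held Xcr1 or Clec9a and at least 2 rule genes. These numbered 58 in room air and 129 in smoke, and the rule had split them off. Because Xcr1 and Clec9a set this contrast, nothing is read from the counts of type 1 genes. Of the type 1 genes outside the rule, 7 of 8 measured were at least 1.5-fold lower in the room air members and 11 of 11 in the smoke members, where 21.7% of 8924 and 13.8% of 11395 genes were lower. Wdfy4, needed for cross-presentation, was at 1106 and 1153 CPM in the members and at 2830 and 5597 CPM in the type 1 nuclei. Class II genes differed in both directions between the 2 kinds of dendritic nuclei. Of 14 measured, 4 were higher and 0 lower in room air members (H2-Eb2, H2-DMb2, H2-Oa and H2-Ob higher), with a median log2 ratio of 0.23. In smoke 5 were higher (H2-Eb2, H2-DMb2, H2-Oa, Ctss and Ifi30) and 3 lower (H2-DMb1, H2-Ob and Marchf1), with a median of 0.13. H2-Ob thus changed sides between the libraries. Of H2-Eb2, a class II beta chain gene, members had 26 and 93 UMIs (13.7 and 21.5 CPM), and the type 1 nuclei had 1 UMI in each library. The genes of the mature or migratory state were higher in the members, 17 of 21 measured in room air and 19 of 21 in smoke, where 18.4% and 18.1% of all genes were higher. Members needed 3 rule genes and the type 1 nuclei only 2. The summed maturation genes also went from 1359 CPM just outside the rule to 3355 CPM with exactly 3 in room air, and from 1384 to 4254 CPM in smoke. Nothing is therefore read from the counts in this contrast.

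Against macrophage-marker nuclei, 12 higher and 12 lower genes were named by a ranking over both libraries. Dscam, an adhesion molecule gene best known from neurons, was at 985 CPM in members of the room air library and 1151 CPM in those of smoke, against 8.10 and 9.13 CPM in macrophage-marker nuclei. St8sia1, which makes the ganglioside GD3, was at 216 and 259 CPM against 1.69 and 2.27 CPM. Ctnnd2, a catenin gene, was at 1069 and 1087 CPM against 13.1 and 14.7 CPM, and Dscam, St8sia1 and Ctnnd2 were thus at least 74.1-fold higher in the members of both libraries. Zfp366, which encodes the dendritic cell factor DC-SCRIPT, was at 628 CPM against 7.14 CPM in room air. Ccr7 was 91.8-fold and 67.9-fold higher. Some of these genes were also high in type 1 dendritic nuclei, so the ranking does not single out the members among dendritic nuclei. There Zfp366 was at 467 and 829 CPM, against 628 and 601 CPM in members. Klrk1 was at 70.5 and 116 CPM, against 74.2 and 83.9 CPM. Ctnnd2, at 294 and 489 CPM, and Dscam, at 119 and 63.6 CPM, were lower there than in members. Adam23, Klri1, Ffar2, Tmem150c, P2ry10, Bcl2l14 and Klrk1 completed the ranking; Klri1 and Klrk1 encode receptors of the killer cell lectin family and Ffar2 a receptor for short-chain fatty acids.

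Macrophage genes outside the rule were lower in the members, 13 of 17 measured in room air and 17 of 18 in smoke, with median log2 ratios of −1.57 and −1.55, where 23.7% of all genes were lower in each library; the rule set this contrast, and nothing is read from the counts. Gpnmb, a glycoprotein of lipid-loaded macrophages, was at 286 and 355 CPM in the members and at 2326 and 2728 CPM in macrophage-marker nuclei. Cd5l, a secreted macrophage protein gene, was at 44.7 and 30.7 CPM against 524 and 361 CPM, and Atp6v0d2, a proton pump subunit gene, at 184 against 1725 CPM in room air. The lipid handling genes were also lower, 12 of 14 measured in each library. The other genes named as lower were Mamdc2, Ccdc148, Zfp462, C77080, Spsb4, Tenm4, Fam20c, Hapln3 and Wfs1.

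Several transcripts of dendritic biology that the rule did not use were high in both libraries. Cd86, a co-stimulatory ligand for T cells, was at 1382 CPM in room air members and 1419 CPM in smoke members, against 129 and 138 CPM in macrophage-marker nuclei, and Cd80 was 13.3-fold and 14.0-fold higher there. Cbfa2t3, a co-repressor needed for dendritic cell development, was at 905 and 806 CPM against 34.6 and 40.9 CPM, and Bcl11a, a transcription factor gene, at 545 and 486 CPM. Ccr2, the receptor that brings monocytes and their progeny into inflamed tissue, was at 88.4 and 88.9 CPM against 5.93 and 9.59 CPM. Kynu, which acts next to Kmo in tryptophan breakdown, was at 316 and 346 CPM, 6.53-fold and 7.48-fold above macrophage-marker nuclei. Their smoke over room air ratios in the members lay between 0.891 (Bcl11a) and 1.10 (Cd80).

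H2-Ab1 (ENSMUSG00000073421), the beta chain of the class II molecule I-A and a marker given for these nuclei, was at 479 CPM (448 to 511; 910 UMIs) in room air and 683 CPM (658 to 708; 2955 UMIs) in smoke. It was 22.9-fold (20.9 to 25.2) and 21.9-fold (20.7 to 23.1) above macrophage-marker nuclei. A UMI of H2-Ab1 was found in 54.1% of room air and 76.7% of smoke members. Cd74, the invariant chain that fills the class II groove, was at 1337 and 1889.8 CPM in members, 74.2 and 112 CPM in macrophage-marker nuclei, 243 and 555 CPM in B-marker nuclei and 19.9 and 60.0 CPM in endothelial-marker nuclei. The members and the type 1 dendritic nuclei (1089 and 1872 CPM of Cd74) were thus the highest readers of class II among the classes compared. Marchf1, a ligase that removes class II from the surface, was at 852 and 781 CPM.

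**Figure D2:**
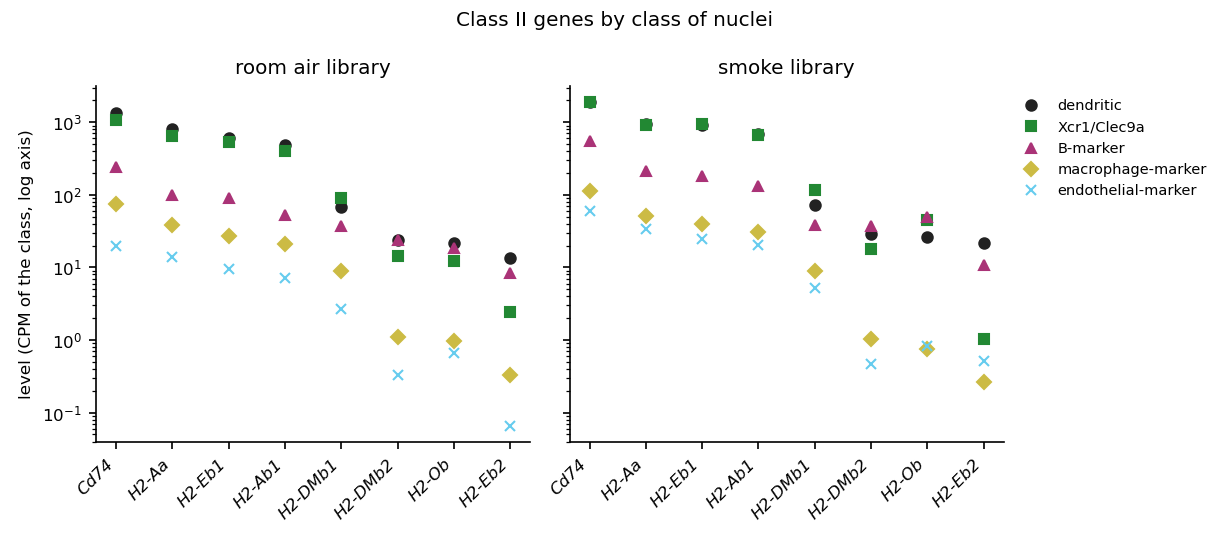
CPM on a log axis of 8 class II presentation genes in 5 classes of nuclei, room air on one panel and smoke on the other; points are summed UMIs of a class over all its UMIs, without error bars. In each panel the dendritic members and the type 1 dendritic nuclei (Xcr1/Clec9a) lie above the macrophage-marker and endothelial-marker nuclei, for example at 479 and 683 CPM of H2-Ab1 in the members against 20.9 and 31.2 CPM in macrophage-marker nuclei.

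Summed over all members, the transcripts of the invariant chain, the I-A chains and the I-E beta chain were higher in smoke than in room air. The alpha chain of I-E was not on the list. The regulator Marchf1, on the same list, went from 852 to 781 CPM. H2-Eb1, the beta chain of I-E, went from 1161 to 3960 UMIs, or from 611 to 915 CPM, a ratio of 1.497 (1.40 to 1.60). H2-Ab1 had a ratio of 1.43 (1.32 to 1.54), Cd74 of 1.41 (1.35 to 1.48) and H2-Aa, the I-A alpha chain, of 1.17 (1.10 to 1.24; 799.9 and 937 CPM). Ciita itself, read with the nuclei chosen by the other genes, stood at 889 and 966 CPM, a ratio of 1.09 (1.02 to 1.16). The ratios of H2-Eb1, H2-Ab1 and Cd74 were thus above that of Ciita, while the intervals of H2-Aa and Ciita overlapped. The Ciita ratio came from a different choice of nuclei, and the difference was not tested. The class II ratios varied with the number of rule genes. With 5 or more, H2-Aa was at 1158 CPM in room air and 1094 CPM in smoke. H2-Ab1 was at 717 and 854 CPM, H2-Eb1 at 844 and 1118.5 CPM, and Cd74 at 1923 and 2260 CPM. With exactly 3 or 4, each of these genes was higher in smoke. Members with 5 or more were 40.7% in room air and 50.5% in smoke, and the part of this in the ratios was not tested. Over the whole list, 1 of 16 genes was at least 1.5-fold higher (H2-Eb2) and 1 lower (Rfxank), where 12.2% of 11731 genes measured in the members were higher and 6.57% lower; these shares are the background for each list below. The list's median log2 ratio was 0.29, against 0.03 over all genes, and its summed level went from 4809 to 6101 CPM. Each alternative setting kept the list's median above 0, between 0.25 and 0.65.

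The same genes were also higher in smoke among other nuclei. In macrophage-marker nuclei the ratios were 1.51 for Cd74, 1.33 for H2-Aa, 1.46 for H2-Eb1 and 1.496 for H2-Ab1, although the list's median there was 0.02. Endothelial-marker nuclei, where class II RNA was low, went from 7.19 to 20.4 CPM of H2-Ab1 and from 19.9 to 60.0 CPM of Cd74. The smoke over room air difference was thus not particular to the dendritic nuclei, and the part of free RNA in it was not tested. With every nucleus thinned to 2000 UMIs, which removes the difference in depth and leaves 242 and 541 members, H2-Ab1 was detected in 55.4% of room air and 67.8% of smoke members and H2-Eb1 in 64.9% and 74.9%. Cd74 was at 82.2% and 87.1%, and Ciita at 78.9% and 82.3%. Endothelial-marker nuclei thinned in the same way had H2-Ab1 in 2.16% and 4.34%, far under the shares in the members.

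The members held a subset with RNA of Ccr7, which the rule had not used. A Ccr7 UMI was found in 57 of 481 room air members (11.9%, 9.10 to 15.1) and in 123 of 758 smoke members (16.2%, 13.7 to 19.0). Thinned to 2000 UMIs the shares were 28 of 242 (11.6%) and 61 of 541 (11.3%), so no difference between the libraries was detectable at equal depth. Members with Ccr7 were somewhat deeper, with medians of 3245 UMIs against 2830.5 without it in room air and 5224 against 4674 in smoke. Other genes of the mature or migratory state went with Ccr7. Fscn1, which bundles actin in migrating dendritic cells, was at 422 CPM in room air members with Ccr7 and 19.8 CPM in those without, and at 243 and 9.40 CPM in smoke. Cacnb3, a calcium channel subunit gene, was at 696 against 37.7 CPM in room air and 605 against 19.6 CPM in smoke. Slco5a1, a transporter gene, was at 513 against 22.8 CPM and 493 against 10.5 CPM. For each of these 3 genes the members with a Ccr7 UMI stood far above the others in both libraries.

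Ly75, which encodes an endocytic receptor of dendritic cells, stood at 791 against 58.7 CPM in room air and 834 against 43.1 CPM in smoke. Relb, an NF-kB subunit of dendritic maturation, was at 1135 against 210.1 CPM and 1027 against 167 CPM, and Cd274, which encodes the checkpoint ligand PD-L1, at 956 against 136 CPM and 967 against 160.3 CPM. The maturation genes as a list summed to 10521 CPM with Ccr7 and 3140 CPM without in room air, and to 10297 and 2898 CPM in smoke. These sums include Ccr7 itself, which the split put at 670 and 709 CPM on one side and at 0 on the other. Ndnf, Slc4a8, Slc22a23, Mmp25, Serpinb9 and Strip2 were further genes higher with Ccr7, named after their values were seen. The nuclei of a library are not replicates, so these contrasts are descriptions of each library.

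Several genes ran the other way, among them Ciita and Marchf1, which regulate class II. Ciita was at 465 CPM in room air members with Ccr7 and 906 CPM in those without, and at 546 and 996 CPM in smoke. Marchf1 was at 122 against 953 CPM and 169 against 901 CPM, and Wdfy4 at 169.6 against 1235 CPM and 231 against 1334 CPM. Il1r2 was at 257 against 1375 CPM and 281 against 1395 CPM, and Kmo at 21.7 against 286 CPM and 59.1 against 250.1 CPM. All 5 genes were lower with Ccr7 in both libraries. Of these, Ciita, Il1r2 and Kmo were used by the rule, so their values here are partly shaped by the choice. Flt3, also a rule gene, was not lower with Ccr7. It was found in 75.4% of room air members with Ccr7 and 50.2% of those without, and in 82.1% and 57.0% in smoke. H2-Ab1 differed less, at 452 against 483 CPM in room air and 516 against 715 CPM in smoke. Of the markers of other cells summed here, those of T or NK cells were higher with Ccr7: their summed level was 339 against 132 CPM in room air and 293 against 193 CPM in smoke. Macrophage genes summed to 1178 against 1375 CPM and 1244 against 1641 CPM, and B cell genes to 73.9 against 432 CPM and 144 against 520.4 CPM.

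**Figure D3:**
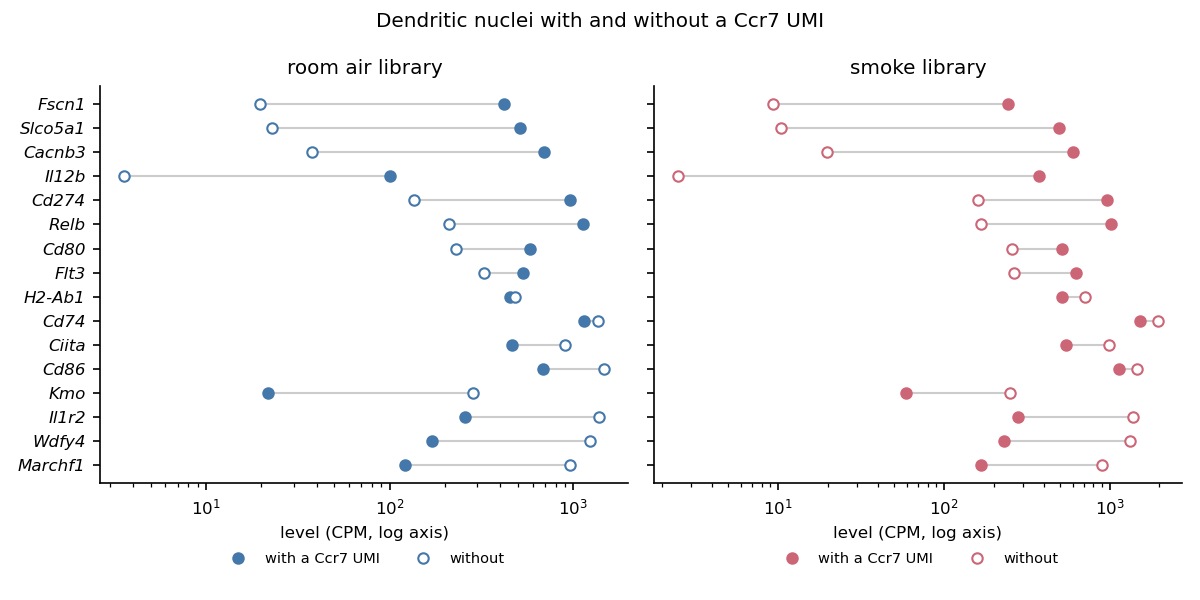
CPM on a log axis of 16 genes in members with (filled) and without (open) a Ccr7 UMI, room air and smoke in separate panels, without error bars. Fscn1, Slco5a1, Cacnb3 and Il12b lie higher with Ccr7 in both panels, and Marchf1, Wdfy4, Il1r2 and Kmo lie lower. Il1r2 and Kmo were used by the rule.

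Il12b, the shared subunit of the T cell cytokines interleukin-12 and interleukin-23, was read mostly in the Ccr7 subset. In room air, 29 UMIs lay in 15 members, 23 of them in members with Ccr7, and in smoke 275 UMIs lay in 36 members, 266 of them with Ccr7. The level went from 15.3 to 63.5 CPM over all members, a smoke over room air ratio of 4.16 (2.83 to 6.33). Few nuclei carried it: the 5 nuclei with most Il12b UMIs held 65.5% of the room air UMIs and 60.4% of the smoke UMIs. Without those 5 nuclei in each library, 10 and 109 UMIs were left and the ratio was 4.78 (2.50 to 10.3). The totals of all members were kept, and 5 of 15 room air carriers were left out against 5 of 36 in smoke. This ratio therefore cannot show how far the difference rests on few nuclei. Over the alternative settings the Il12b ratio lay between 2.66 and 6.65. Within the members with Ccr7 the ratio was 3.74 (2.44 to 6.01), and in macrophage-marker nuclei it was 2.97. An Il12b UMI was found in 19.3% (10.0 to 31.9) of room air and 25.2% (17.8 to 33.8) of smoke members with Ccr7, and these intervals overlap.

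Other smoke over room air ratios also differed between the members with and without Ccr7, a difference that was not tested. Cd86 had a ratio of 1.67 (1.41 to 1.99) with Ccr7 and 0.997 without. H2-Ab1 had 1.14 (0.916 to 1.43) with Ccr7 and 1.48 (1.37 to 1.61) without, and H2-Eb1 1.11 and 1.57. Cd74 had 1.34 and 1.44, and Cadm1, an adhesion molecule gene of the type 1 dendritic list, 1.66 and 1.58. In both libraries Cadm1 was at least 1.5-fold lower in the members than in macrophage-marker nuclei and than in type 1 dendritic nuclei. Fscn1 was lower in smoke in both, at 0.577 and 0.476. Ciita had 1.17 (0.945 to 1.47) with Ccr7 and 1.10 (1.03 to 1.17) without, so with Ccr7 it was not below H2-Ab1 and H2-Eb1. The ratios of H2-Ab1 and H2-Eb1 were thus the larger in members without Ccr7, and that of Cd86 in those with it.

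Rule genes also divided the members, which is a description since they took part in the choice. The 31 room air and 65 smoke members with Cd209a had Clec10a at 149.6 and 97.1 CPM, against 31.9 and 29.9 CPM in the others. Cd74 stood at 3089.9 and 3068 CPM against 1161 and 1731 CPM, and H2-Ab1 at 909 and 1090 CPM against 436 and 628 CPM. Members with Kmo had Ccr7 at 7.49 and 21.2 CPM, against 152 and 208 CPM in those without. Cyp7b1, which hydroxylates oxysterols, was at 915 and 553 CPM with Kmo and 364 and 187 CPM without. Members with Il1r2 had Cd86 at 1782 and 1731 CPM, against 749 and 696 CPM. Cacnb3 was among the lower genes in members with Cd209a and in members with Il1r2, and Fscn1 in members with Kmo. Members with Cd209a were deeper, with medians of 4756 against 2830.5 UMIs in room air and 5942 against 4654 in smoke. So were those with Kmo, at 3920 against 2149.5 and 5245 against 4393 UMIs. A single room air member held 294 of the 2541 Cd74 UMIs. The part of depth in these contrasts was not tested.

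Between smoke and room air members, 1428 genes were at least 1.5-fold higher and 771 lower among 11731 measured. With the whole interval past 1.5-fold, 148 (1.26%) were higher and 102 (0.869%) lower. The rule for named genes was met by 15 higher and 7 lower genes, of which the first 12 higher and all 7 lower were named. Per1, a clock gene that also answers glucocorticoids, went from 65 to 381 UMIs, a ratio of 2.57, and Mt1, which encodes a metallothionein that binds metal ions, from 41 to 249 UMIs, a ratio of 2.67. Cst3, a cystatin that inhibits the proteases of the class II pathway, went from 141 to 640 UMIs (1.99) and Fth1, the ferritin heavy chain, from 254 to 1097 UMIs (1.90). Rasgrp1, an activator of Ras, went from 20 to 114 UMIs (2.50), and Dtl, a ubiquitin ligase adaptor of the cell cycle, from 13 to 103 UMIs (3.48). The histone genes H3f3b and H1f4 had ratios of 2.06 and 2.56. Most of these genes were higher in smoke macrophage-marker nuclei as well: the ratios there were 1.83 for Per1, 2.63 for Mt1, 2.60 for Cst3, 2.19 for Fth1, 2.29 for H3f3b and 2.10 for H1f4, but 1.18 for Rasgrp1 and 1.38 for Dtl. Ndufs7, Car2 and Csnk2b were read from 4, 3 and 3 UMIs in room air and 50, 40 and 35 in smoke, so their ratios have wide intervals (2.01 to 20.9 for Ndufs7).

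Of the lower genes, Lars2, the mitochondrial leucyl-tRNA synthetase, went from 884 to 282 CPM (1680 and 1221 UMIs), 3.13-fold lower in smoke, and its ratio in macrophage-marker nuclei was 0.411. Cmss1, a nucleolar protein gene, went from 1712 to 755 CPM, 2.27-fold lower (macrophage-marker ratio 0.514). Il31ra, a cytokine receptor gene, went from 290 to 200 UMIs, or 153 to 46.2 CPM, 3.30-fold lower (macrophage-marker ratio 0.311). These 3 genes were lower in macrophage-marker nuclei of the smoke library as well, and also in its type 1 dendritic, B-marker and endothelial-marker nuclei. In these last classes Il31ra went from 114 to 30.2, from 129 to 47.7 and from 70.9 to 26.0 CPM. Lars2 went from 581 to 235, from 901 to 336 and from 460 to 233 CPM. Their lower level in smoke was thus not particular to the members. Cyp7b1 went from 635 to 367 CPM (1207 and 1587 UMIs), a ratio of 0.577 (0.535 to 0.623). P2ry12, a nucleotide receptor of microglia and some macrophages, was 2.09-fold lower and Casz1, a zinc finger factor gene, 2.75-fold lower, with 41 and 34 UMIs of Casz1. Pilra, an inhibitory receptor gene, went from 33 to 29 UMIs. Casz1, Pilra and P2ry12 had ratios of 1.03, 1.03 and 1.04 in macrophage-marker nuclei, unlike the first 3 genes; the difference between the classes was not tested.

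**Figure D4:**
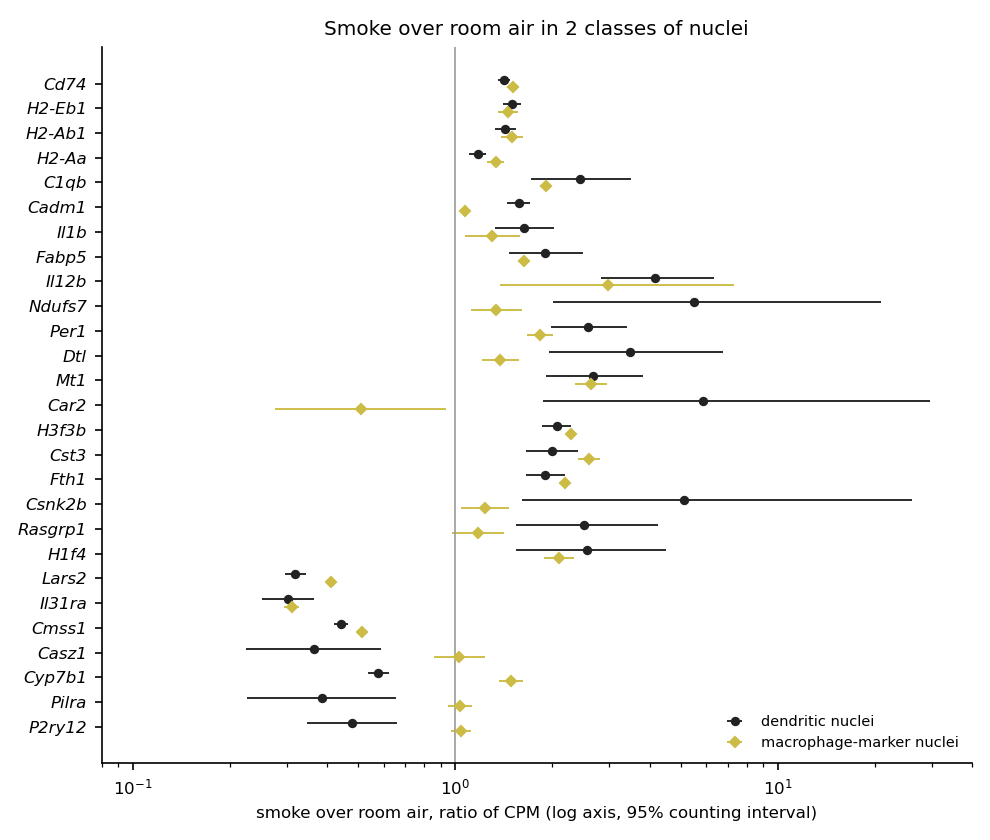
Smoke over room air ratio of CPM (log axis) of 27 genes in the dendritic members and in macrophage-marker nuclei, with 95% intervals that cover counting error only; the line marks a ratio of 1. Il12b has a ratio of 4.16 in the members and 2.97 in macrophage-marker nuclei, and the members' interval of Lars2 lies wholly below 1.

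The lists of dendritic function had medians near 0 between room air and smoke members. Co-stimulation and checkpoint ligands had a median log2 ratio of 0.01, with 0 of 14 measured genes past 1.5-fold in either direction. The pan-dendritic list stood at 0.01 with 0 of 12, and the type 2 dendritic list at 0.06 with Cd7 higher and Cd1d1 lower of 15. Among the 21 measured maturation genes, Il12b was higher and Il4i1, an amino acid oxidase gene, lower, with a median of −0.02. Of 9 kynurenine pathway genes, which share Il4i1 with that list, Haao, the enzyme after Kynu, was higher (24 and 124 UMIs, ratio 2.27) and Il4i1 was the 1 lower. Haao was found in 1.65% of room air and 8.13% of smoke members at 2000 UMIs per nucleus. None of these 5 lists had more than 1 gene higher and 1 lower, where 12.2% of all genes were higher and 6.57% lower, so the counts are near or under that background. Of the C-type lectins, 0 of 13 were higher and Clec12a was lower.

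Il1b, the inflammasome cytokine, went from 116 to 431 UMIs in the members, a smoke over room air ratio of 1.63 (1.33 to 2.02). Its lists did not rise as a whole. Of 16 NF-kB and inflammation genes, Il1b was the 1 higher and 3 were lower (Ptgs2, Ccl3 and Ccl4), with a median log2 ratio of −0.07. Of 10 interleukin-1 family genes measured, 3 were higher (Il1b, Il33 and Il1rl2) and 0 lower, with a median of −0.08. The readings of several chemokine and interferon genes depended on single room air nuclei. Of 19 measured chemokine and receptor genes, Cxcr4 was higher (1.53) and Ccl3, Ccl4, Ccl6, Cxcl9 and Cxcl10 were lower, against 12.2% and 6.57% of all genes. For the T cell attractants Cxcl9 and Cxcl10, 19 of 21 and 19 of 27 room air UMIs lay in 1 nucleus, and without the top nucleus of each library their ratios turned from 0.251 to 1.31 and from 0.455 to 1.37. Ccl4 turned from 0.554 to 0.903, with 27 of 57 room air UMIs in 1 nucleus. Of 16 interferon response genes, 2 were higher (Irf7 and Usp18) and 5 lower (Ifit1, Ifi44, Rsad2, Cxcl10 and Gbp2), with a median log2 ratio of 0.02, against 0.51 in macrophage-marker nuclei. Gbp2, an interferon-induced GTPase gene, had 48 of its 73 room air UMIs in 1 nucleus and 31 UMIs in smoke, and its ratio went from 0.186 to 0.488 (0.274 to 0.873) without the top nuclei. Rsad2 and Ifi44, with 17 of 28 and 10 of 15 room air UMIs in 1 nucleus, turned to 1.31 and 1.30. For each gene the nucleus left out was the one with most UMIs of that gene, and few UMIs remained. Cxcl9 kept 2 and 6 UMIs (interval 0.235 to 13.3) and Ifi44 5 and 15 (0.451 to 4.59). Ccl3 stayed lower, at 0.350 (0.120 to 0.984). With the top nucleus of the whole interferon list left out instead, Rsad2 and Cxcl10 were still at least 1.5-fold lower in smoke, while Ifi44 was higher. The direction of Cxcl9, Cxcl10, Rsad2 and Ifi44 thus depended on which nucleus was left out or on few UMIs.

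Genes that tobacco smoke is known to induce through the aryl hydrocarbon receptor were low or close between the libraries. Cyp1a1 was at 0 UMIs in both libraries, Cyp1b1 at 21 and 56 UMIs (ratio 1.17, 0.698 to 2.04), and Tiparp, a feedback inhibitor of the receptor, at 273 and 228 CPM (ratio 0.835). Of the NRF2 targets, which respond to oxidants, Slc7a11, the cystine transporter, went from 59.5 to 90.8 CPM, a ratio of 1.53 (1.24 to 1.90), which was 1.02 with nuclei thinned to 2000 UMIs. Srxn1, which repairs peroxiredoxins, went from 3 to 25 UMIs. These were the 2 higher of 11 NRF2 targets measured, with 0 lower and a median log2 ratio of −0.03, where 12.2% of all genes were higher. Nqo1 was at 3 and 2 UMIs and Hmox1 at 7 and 21, too few to compare at this depth.

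Of 16 macrophage genes measured in the members, 4 were at least 1.5-fold higher in smoke and 0 lower, against 12.2% and 6.57% of all genes. The complement genes C1qa, C1qb and C1qc went from 48 to 220, 39 to 216 and 23 to 119 UMIs, ratios of 2.01, 2.43 and 2.27, and Trem2 had a ratio of 1.94. In macrophage-marker nuclei the ratios were 1.69, 1.91, 2.04 and 1.30, and in endothelial-marker nuclei C1qb went from 11.7 to 29.5 CPM. C1qb was thus higher in smoke in all 3 of these classes, and the part of free macrophage RNA in the members' values was not tested. Of the lipid handling genes, Plin2 (1.77), Fabp4 (1.56), Fabp5 (1.90) and Trem2 were higher. T or NK cell genes summed to 157 and 209 CPM with 5 of 7 measured genes higher, among them Cd247 (13 and 65 UMIs). Without nuclei that held 2 or more genes of another class, the T or NK median log2 ratio turned from 1.06 to −0.068. The defining genes Cd3e, Cd3d and Cd3g had 2, 1 and 1 UMIs in room air members and 6, 3 and 4 in smoke members.

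The share of nuclei that met the rule was 4.36% (3.99 to 4.76) in room air and 5.41% (5.04 to 5.80) in smoke, a ratio of 1.24 (1.11 to 1.39). A share of nuclei depends on what else is in the library, and fewer dendritic cells cannot be told apart from more cells of other kinds. The size of the difference moved with the settings. Without the mitochondrial limit, 648 room air nuclei (4.95%) and 789 smoke nuclei (5.32%) met the rule, a ratio of 1.07. Asking for at least 2 rule genes gave 870 and 1175 nuclei and a ratio of 1.06, and asking for at least 4 gave 316 and 565 and a ratio of 1.41. At 2000 UMIs per nucleus, 242 of 8168 (2.96%) and 541 of 11716 (4.62%) met the rule, a ratio of 1.56, and at 1000 UMIs 272 and 441. The smoke share was the higher at each of these settings, by 1.06-fold to 1.56-fold, and the intervals of the 2 lowest ratios include 1.

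**Figure D5:**
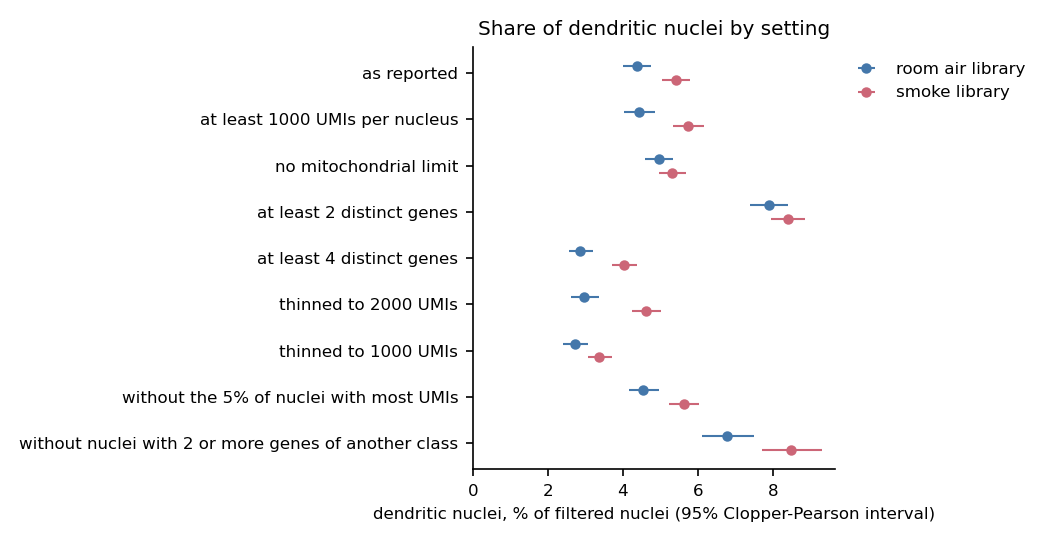
Percent of nuclei that met the rule (horizontal axis, from 0) in room air and smoke at 9 settings, with exact binomial 95% intervals. The intervals overlap without the mitochondrial limit (4.95% and 5.32%) and with at least 2 rule genes, and lie apart at 2000 UMIs per nucleus (2.96% and 4.62%).

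The aneurysm library held 6 members of 5707 nuclei, a share of 0.105% (0.0386 to 0.229), 51.5-fold below the smoke share. That library was the shallowest. At 2000 UMIs per nucleus the share was 3 of 1932 (0.155%, 0.0320 to 0.453), 29.7-fold below the smoke share, so it was also low among nuclei of equal depth. Macrophage-marker nuclei numbered 689 there and type 1 dendritic nuclei 4. The 6 members had 1528 to 6747 UMIs each and 18966 together, so that 3 UMIs of a gene correspond to 158 CPM.

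Class II genes summed to 97 UMIs, or 5114 CPM (4147 to 6239). Ciita had 26 UMIs in 5 of the 6 nuclei, Dpp4 35 in 5, Kmo 14 in 4, H2-Aa 17 in 5 and Cd74 16 in 4. Cbfa2t3 had 29 UMIs in all 6 nuclei, and the chemokine receptor gene Ccr2 had 22 UMIs in 3 nuclei. Maturation genes summed to 82 UMIs and macrophage genes to 12. Il12b, Gpnmb, Mki67 and the T or NK genes had 0 UMIs, which by the floor of 3 UMIs cannot be told from up to 158 CPM for a single gene. With 6 nuclei, no comparison of their genes with smoke or room air members was made.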

How the data were processed

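Nuclei of 3 libraries were measured with 10x Genomics chemistry, 1 library per group. The deposited values are UMI counts per gene and barcode made by the authors, with Cell Ranger 2.2.0, STAR and build mm10 per the submitters' processing notes; the file header names cellranger 8.0.1, and the difference was not resolved. Barcodes below 500 UMIs or 300 genes, or with 5% or more mitochondrial UMIs, were dropped, and no doublet caller was run. Counts were summed per class of nuclei and library and given as CPM of the class's UMIs. Genes needed at least 20 UMIs in both libraries together, and at least 1.5-fold counted as higher or lower. Genes between smoke and room air were named by the interval bound nearest 1, with at least 30 UMIs in at least 10 nuclei, no nucleus over 20% of them, and a bound of at least 1.5-fold, up to 12 per direction; predicted, mitochondrial, ribosomal, haemoglobin and sex-linked genes were left out. Genes between members and macrophage-marker nuclei were ranked by the smaller bound of both libraries. Members and gene lists were chosen with earlier results of these data known. Thinning drew 2000 or 1000 UMIs per nucleus with a fixed seed. The counting was tested on simulated data. Software was Python 3.11.15, numpy 2.4.6, scipy 1.17.1, pandas 2.3.3, matplotlib 3.10.9 and R 4.3.3 with edgeR 4.0.16, used for 1 scaling factor (TMM) only. Alternatives covered the filters, the number of rule genes, depth, scaling and deep or mixed nuclei.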

Additional observations from a re-analysis of the deposited data

Results flagged for a closer look

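Car2, a carbonic anhydrase gene, and Cyp7b1 differed between smoke and room air in opposite directions in the dendritic nuclei and in macrophage-marker nuclei. Car2 had a smoke over room air ratio of 5.85 (95% interval 1.86 to 29.6; 3 and 40 UMIs) in the dendritic nuclei and 0.508 (0.276 to 0.933; 25 and 23 UMIs) in macrophage-marker nuclei. Cyp7b1 had a ratio of 0.577 (0.535 to 0.623; 1207 and 1587 UMIs) in the dendritic nuclei and 1.49 (1.36 to 1.62; 720 and 1937 UMIs) in macrophage-marker nuclei. Each class is 1 library per group, so the difference between the classes was not tested.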

How the results depend on the processing

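The smoke over room air share ratio was 1.07 without the mitochondrial limit, 1.06 with at least 2 rule genes, 1.41 with at least 4 and 1.56 at 2000 UMIs per nucleus. Against 1428 higher and 771 lower genes, 494 were lower at 2000 UMIs per nucleus; 695 and 422 were higher and lower at 1000 UMIs, 738 and 376 with at least 50 UMIs per gene, 2585 and 2781 with no minimum, and 605 and 226 at 2-fold. Higher genes were 64.9% of those past 1.5-fold and 48.2% with no minimum. Of the genes higher in room air members than in macrophage-marker nuclei, 2271 passed at 2000 UMIs in place of 3445. The proliferation median turned from −0.76 to 0.53 with at least 4 rule genes, 0.42 at 2000 UMIs, 1.23 at 1000 UMIs, 0.034 without the deepest 5% of nuclei, 0.12 without nuclei of mixed markers and 0.039 without members over 20000 UMIs, the last chosen after seeing the data. The neutrophil median turned from −0.63 to 0.31 at 2000 UMIs, the log2 ratio of Pilra to 0.89 at 1000 UMIs, and the T or NK median from 1.06 to −0.068 without nuclei of mixed markers; the cause was not tested. Of the other values, 1189 stayed within their counting interval and 89 moved past it in size. Leaving out the member nucleus with most UMIs of a list, chosen after seeing the data, changed the interferon counts from 2 higher and 5 lower to 3 and 4, and the chemokine counts from 1 and 5 to 3 and 3. No paired analysis was possible because each group is 1 library. Depth limits genes under 20 UMIs and every value in the aneurysm library.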

Other observations

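Proliferation genes were read in a minority of members. Mki67, a marker of cycling cells, lay in 40 of 481 room air members (113 UMIs) and 94 of 758 smoke members (258 UMIs), 59.5 and 59.6 CPM. Top2a, which untangles replicated DNA, lay in 30 and 57 members, 49.5 and 35.8 CPM. Anln and Cenpe, which act in cell division, went from 42.6 to 18.2 CPM and from 32.6 to 16.9 CPM. Of the 81 room air UMIs of Anln, 36 lay in 1 nucleus, and its ratio went from 0.428 to 0.677 without the top nucleus of each library. The list of 12 measured genes had a median log2 ratio of −0.76 with 6 lower, where 6.57% of all genes were lower. Without the nucleus with most UMIs of the list in each library it was −0.37 with 5 lower, and its sign changed under several settings.

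Serotonin genes beside the rule gene Htr7 were low, at 49 and 138 UMIs summed over 10 genes. Htr2b, another serotonin receptor gene, had 17 and 62 UMIs, and Maob, a serotonin-degrading oxidase gene, 2 and 30. Among genes of TGF-beta signalling, Tgfbr1, a TGF-beta receptor gene, was abundant and went from 402 to 570 CPM, a smoke over room air ratio of 1.42 (1.31 to 1.54), against 1.09 in macrophage-marker nuclei. Tgfbr2 stood at 208 and 224 CPM and Smad7, an inhibitor of the pathway, at 172 and 169 CPM. The 10 plasmacytoid dendritic genes summed to 1408 and 1263 CPM, most of it from the transcription factor genes Tcf4 (906 and 818 CPM) and Runx2 (445 and 391 CPM), which other cells also express. Siglech, a defining receptor gene of those cells, had 13 and 53 UMIs and Ccr9 34 and 32.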
